A study of Homo sapiens with 24 samples.

Results

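SW620 is an established human colorectal adenocarcinoma cell line, derived from a lymph node metastasis, and the results concern its ribosome footprints set against its own RNA. The members were 4 libraries, 2 of ribosome-protected fragments (SW620 RPF) and 2 of input RNA (SW620 INPUT), chosen by their labels out of 24 libraries in the series. The series covers 6 populations with 2 RPF and 2 INPUT libraries each, and its design text asks how translational efficiency in HCT116, HCT15 and SW620 differs from that in 841CON. HCT116 and HCT15 are colon cancer lines, 841CON is labelled as normal colon epithelium, and HCT15 cells were also profiled with an expression vector (HCT15-PLVX) and with COPS7B overexpression (HCT15-COPS7B). Every population other than HCT15-COPS7B is labelled wild type, HCT15-PLVX included. All 24 libraries share 1 treatment, cycloheximide at 100 µg/mL for 10 minutes before lysis. Per the labels, SW620 was grown in L15 medium in an air incubator, while the other lines were grown in other media under CO2, so line and culture condition cannot be told apart. No label states that the 2 libraries of a group are separate cultures, and the p-values then cover only library-to-library spread, which may be technical.

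A translating ribosome shields a short stretch of its mRNA from nuclease, and counting these shielded stretches shows where ribosomes sit. Cycloheximide blocks elongation by cytosolic ribosomes and holds them on the message. An mRNA with many footprints for its RNA is often read as one on which ribosomes are dense or slow. One with few is often read as lightly loaded, held back at initiation or kept away from ribosomes. Cells set such ratios apart through features of the 5′ leader, upstream reading frames and RNA-binding proteins. Counts per gene also depend on the feature counted and on near-identical genes, both uncertain here.

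The SW620 RPF libraries were shallow, with 98043 and 84262 counts, against 960395 and 1561479 counts of SW620 INPUT in the same 20426 genes. The RPF libraries of the other populations held 997844 to 4679279 counts. Detected genes numbered 9171 and 9074 in SW620 RPF, with a median of 4 counts each, and 12519 and 12681 in SW620 INPUT. Replicates differed by more than sampling noise, with a chi-square per gene of 4.12 between the RPF libraries and 11.97 between the INPUT libraries. Across the 2274 abundant mRNAs the SD of the log2 difference between replicates was 1.16 for RPF and 0.62 for INPUT. The reads carry no molecular identifiers, so the intervals and floors printed account for counting error alone. Genes appear in the files as Ensembl identifiers with no names beside them, so at most 2 identifiers are given in each direction, other genes are described by class or rank, and neither the colon epithelial markers nor gene pathways could be looked up.

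Most abundant mRNAs of SW620 carried footprints in rough proportion to their RNA, and more of the exceptions lay below than above. Abundant mRNAs were the 2274 genes with at least 100 CPM in INPUT on average, CPM being a count divided by its library's total and brought to a common size. They are called mRNAs after the study's question, as the files give no gene type, and gene length was not available to correct the levels. Their scaled footprint level differed from their scaled RNA level by less than 2-fold in 1401 genes (61.6%), by more in the upward direction in 327 and in the downward direction in 546. The difference of RPF and INPUT had a median of −0.07 and quartiles of −0.95 and 0.66 on the log2 scale. Scaling by trimmed means over these abundant mRNAs places the middle one near 0, so a shift common to all of them could not be seen. INPUT both picks the abundant mRNAs and enters the difference, so the choice can itself tilt differences downward. The size of this tilt was not tested.

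With edgeR's quasi-likelihood test at a Benjamini-Hochberg adjusted p under 0.05, footprints were lower than RNA for 212 abundant mRNAs (9.32%) and higher for 84 (3.69%), while 1978 did not pass. Over all 9723 genes tested, 274 were lower (2.82%) and 322 higher (3.31%), 596 in all (6.13%). The lean towards lower among abundant mRNAs, a set picked by INPUT, held under each setting given next, but its size did not. With trimmed means over all tested genes 342 abundant mRNAs were lower and 32 higher, with no such scaling 355 and 31, with DESeq2 and its own size factors 181 and 25, and with all 24 libraries in the fit 182 and 151. These settings, of which DESeq2 also changes the test and all 24 libraries also change the samples fitted, moved the median of the abundant mRNAs from −0.07 to −0.46, −0.51, −0.44 and 0.06. Among all genes tested, where higher calls made up 54.0%, they made up 23.6% with trimmed means over all tested genes, 20.5% with no scaling, 26.9% with DESeq2 and 64.8% with all 24 libraries. The count depended on single libraries. In a fit that leaves one out, the lone library of its group is assumed to vary like the pair of the other group. The 296 calls among abundant mRNAs became 134 without INPUT replicate 1, 49 without INPUT replicate 2 and 140 without RPF replicate 2, against 215 without RPF replicate 1. Over all genes, the 596 calls became 212, 68 and 251 without the same 3 libraries.

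**Figure D1:**
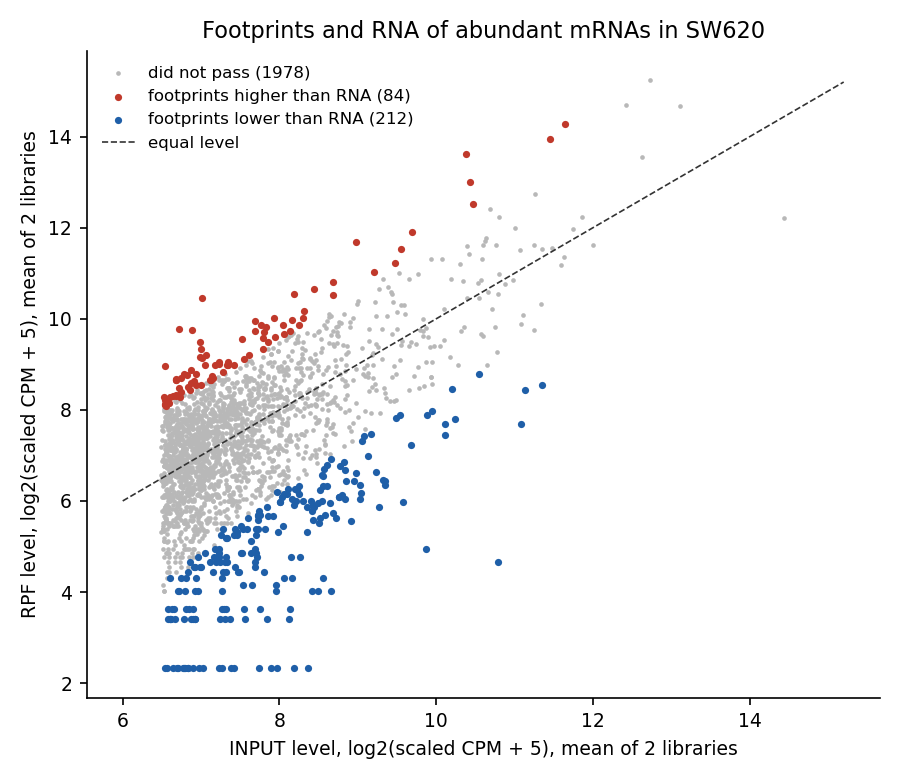
Each point is 1 of 2274 abundant mRNAs of SW620, with the mean RPF level of 2 libraries against the mean INPUT level of 2 libraries, both as log2 of scaled CPM plus a pseudocount of 5, and with colour marking the result of edgeR's test. The 84 mRNAs with higher footprints lie above the line of equal level and the 212 with lower footprints below it, the lowest row being 22 mRNAs with no footprint count in either library.

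Across the abundant mRNAs the RPF and INPUT levels had a Spearman correlation of 0.46 (2274 genes, which are not independent replicates). Between single replicate libraries, Pearson's r of log2 levels was 0.77 for RPF and 0.81 for INPUT. For RPF against INPUT it was 0.57, but between means of 2 libraries, so the values are not like for like. Both RPF libraries lay below both INPUT libraries for 750 abundant mRNAs (33%) and above both for 609 (26.8%), while for 915 they overlapped. Of the called mRNAs, 211 of the 212 lower ones and 81 of the 84 higher ones had RPF and INPUT values that did not overlap, which the test itself favours.

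The lower class carried few footprints, on RNA more abundant than that of the middle abundant mRNA. It was chosen by this difference in the same libraries, so its small share of footprints restates the choice. How far its RNA level follows from what the test can call was not tested. Its 212 genes held 0.926% and 0.834% of RPF counts, against 7.02% and 8.82% of INPUT counts. Their median level was 24.98 scaled CPM in RPF and 207 in INPUT, where all abundant mRNAs had medians of 146 and 144. The median gene of the class had 4 footprint counts in both libraries together, against 23 for all abundant mRNAs. For the 190 members with any footprint, the log2 difference ran from −6.51 to −1.71 with a median of −2.81.

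The higher class was small but heavily footprinted, which its choice by the same difference favours. Its 84 genes held 10.6% and 10.5% of RPF counts, against 3.46% and 2.40% of INPUT counts. Their median level was 536 scaled CPM in RPF and 139 in INPUT. The median member had 83 footprint counts over both libraries. Single members had 3056, 2493, 1992 and 1253, so a few members make up much of the share of RPF counts. Those with 3056, 2493 and 1253 had negative differences in all 5 other populations, and the one with 1992 had positive ones. Whether cytosolic or mitochondrial ribosomes read these members was not determined. Log2 differences in the class ran from 1.56 to 3.48 with a median of 1.83. The 1978 abundant mRNAs that passed in neither direction held 55.5% and 51.6% of RPF counts and 59.8% and 57.1% of INPUT counts. This set holds most of the abundant mRNAs, and not passing does not mean no difference. In simulated counts the test found 1.27% of 2-fold changes in abundant genes. The set includes the RNAs ranked 1, 2, 3 and 5 by abundance, with log2 differences of −2.22, 1.56, 2.51 and 2.28.

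The share of genes with lower footprints grew with RNA abundance up to 1000 CPM. By mean SW620 INPUT, lower calls made up 2.61% of the 2373 genes at 50 to 100 CPM, 5.81% at 100 to 200, 13.7% at 200 to 500, 21.1% of the 123 genes at 500 to 1000 and 13.5% of the 89 genes above. No gene under 50 CPM was called lower, in bins whose median gene had 1 to 5 footprint counts. Higher calls made up 2.16% of the genes under 10 CPM and 5.62% of those above 1000, with 2.87% to 4.07% between. Since INPUT both sorts the genes and enters the difference, the same SW620 differences were also sorted by the RNA level of HCT15, and lower calls then made up 4.37% at 100 to 200 CPM, 8.80% at 200 to 500, 12.7% at 500 to 1000 and 7.69% of the 65 genes above. The median log2 difference was 0.16 at 50 to 100 CPM and −0.33 at 500 to 1000 CPM of SW620 INPUT, against 0.21 and −0.14 by HCT15 INPUT. The part of depth in this trend was not tested. In simulated counts with a 4-fold change the test found 21.6% of abundant mRNAs that had been lowered and 60.7% of those raised.

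**Figure D2:**
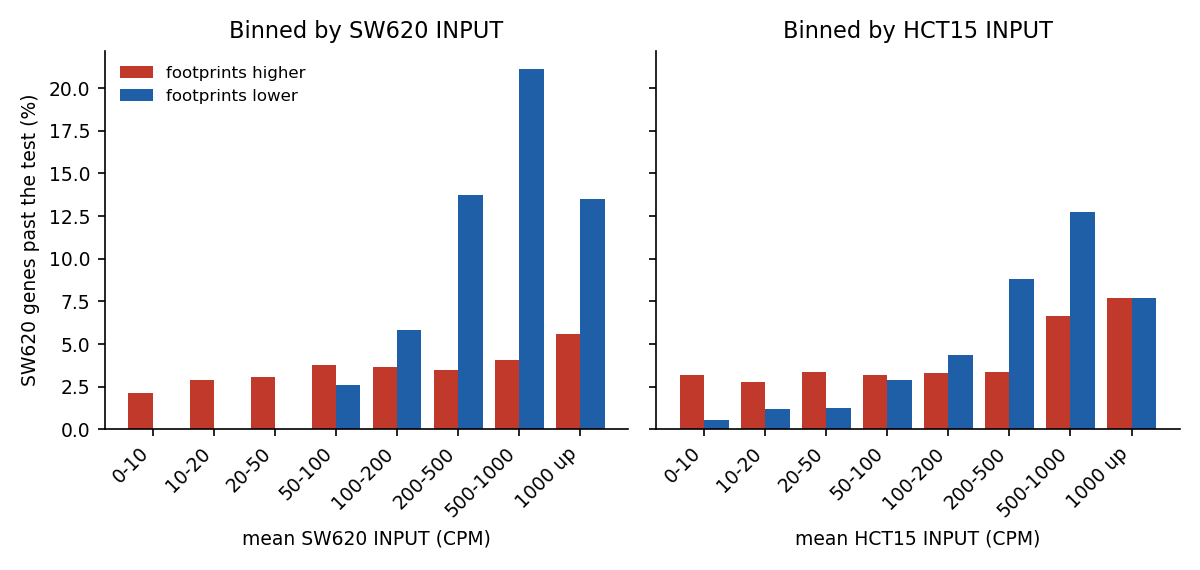
Bars give the percentage of SW620 genes in each bin of RNA level (CPM) whose footprints were higher or lower than their RNA by edgeR's test. Lower calls reached 21.1% at 500 to 1000 CPM when genes were sorted by SW620 INPUT and 12.7% when sorted by HCT15 INPUT, and higher calls ranged over 2.16% to 5.62% and over 2.80% to 7.69%.

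The mRNAs with few footprints in SW620 had few footprints for their RNA in the other populations too, measured in libraries that played no part in choosing them. Each population was fitted on its own 4 libraries. The difference was negative for 168 of the 209 tested members in HCT116 (80.4%), 179 of 211 in HCT15 (84.8%), 181 of 208 in 841CON (87.0%), 178 of 210 in HCT15-PLVX (84.8%) and 180 of 208 in HCT15-COPS7B (86.5%). Among all abundant mRNAs it was negative for 51.7% to 56.6%. The class medians were −1.91, −1.23, −1.62, −1.36 and −1.13 on the log2 scale in the same order. Of the 204 members tested in all 5 other populations, 124 (60.8%) were negative in every one, against 526 of 2137 abundant mRNAs (24.6%). HCT15, HCT15-PLVX and HCT15-COPS7B are forms of 1 cell line and are not independent of each other. All libraries also share 1 protocol and the same list of genes. A fault in counting a gene could therefore recur in each population, which was not tested.

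Many of these also passed the test there. In 841CON 68 of the 208 were called lower (32.7%), where 10.4% of abundant mRNAs were, and in HCT15 63 of 211 (29.9%), where 8.04% were. In HCT15-PLVX 104 of 210 were called lower (49.5%, background 13.8%) and in HCT15-COPS7B 140 of 208 (67.3%, background 26%). HCT116 called 150 of 209 lower (71.8%, background 48.7%). Calls in the opposite direction, higher, numbered 29 in HCT116 (background 36.9%), 1 in HCT15 (8.62%), 1 in 841CON (4.89%), 3 in HCT15-PLVX (7.11%) and 11 in HCT15-COPS7B (20.8%). Of the 204 members tested everywhere, 110 (53.9%) were called lower in at least 3 of the other populations, against 14.4% of abundant mRNAs.

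For the mRNAs with many footprints in SW620, the direction elsewhere was mixed. The difference was positive for 45 of 78 tested members in HCT116 (57.7%), 39 of 80 in HCT15 (48.8%), 39 of 78 in 841CON (50.0%), 53 of 79 in HCT15-PLVX (67.1%) and 52 of 77 in HCT15-COPS7B (67.5%), and for 43.4% to 48.3% of all abundant mRNAs. Calls went both ways. HCT116 called 41 of its 78 higher (background 36.9%) and 30 lower (48.7%), and 841CON called 8 of its 78 higher (4.89%) and 10 lower (10.4%). HCT15 called 13 of 80 higher (8.62%) and 6 lower (8.04%), HCT15-PLVX 15 of 79 higher (7.11%) and 5 lower (13.8%), and HCT15-COPS7B 27 of 77 higher (20.8%) and 12 lower (26%). Of the 72 members tested in all 5, 19 (26.4%) were positive in every population and 8 (11.1%) negative in every one, against 17.7% and 24.6% of abundant mRNAs. Whether the lower and the higher class differ in how often they recur was not tested. Over all abundant mRNAs tested in each population, the log2 difference had a Spearman correlation with that of SW620 of 0.19 in HCT116, 0.25 in HCT15, 0.26 in 841CON, 0.36 in HCT15-PLVX and 0.35 in HCT15-COPS7B, given as descriptions across genes.

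**Figure D3:**
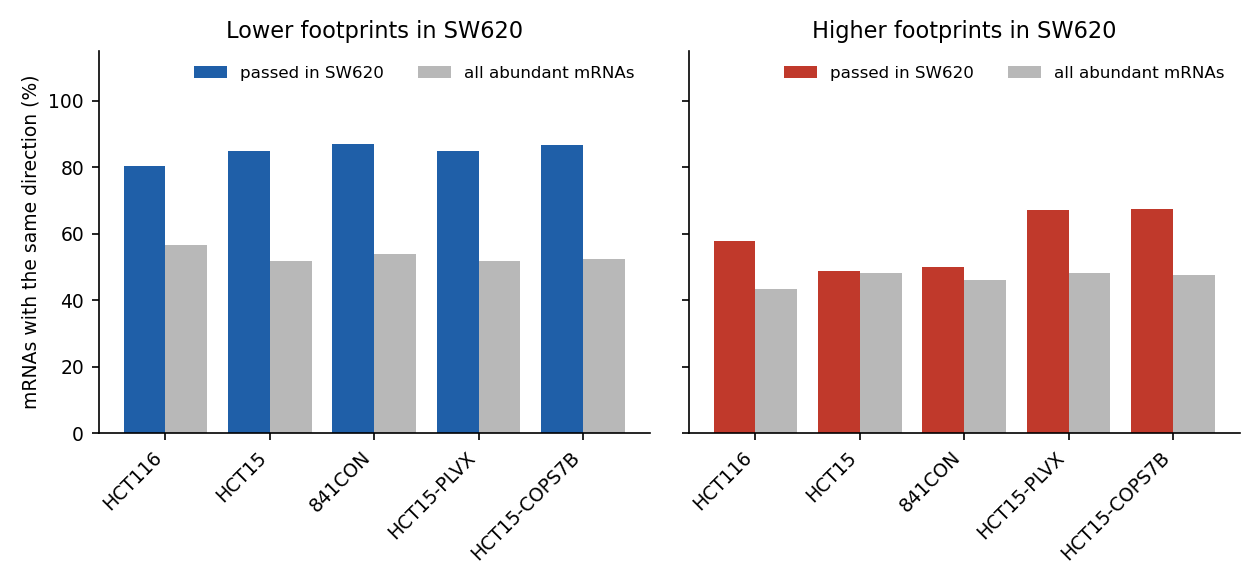
Bars give the percentage of mRNAs, called in SW620 (left bar of each pair) or all abundant (right bar), whose RPF minus INPUT difference had the same direction in each of 5 other populations. For mRNAs with lower footprints in SW620 the bars reach 80.4% to 87.0% against 51.7% to 56.6%, and for those with higher footprints 48.8% to 67.5% against 43.4% to 48.3%.

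The extreme of the lower class was 22 abundant mRNAs with no footprint count in either SW620 library, all called lower. They had 247 to 961 INPUT counts in both libraries together. A further 97 abundant mRNAs had none in 1 RPF library, and 2155 were counted in both. Against a floor of 3 counts over both RPF libraries, which is 19.03 scaled CPM, footprints of the 22 were at least 4.61-fold to at least 17.04-fold lower than RNA, with a median bound of 6.15. In the 10 RPF libraries of the other populations, all of them deeper, 7 of the 22 had counts in every library and 1 in none. Of the 22, 8 (36.4%) were at 0 in 5 or more of the 10, against 19 of the 2252 other abundant mRNAs (0.844%). In HCT116, 13 of them had no footprint in either library, in 841CON 11, in HCT15 and HCT15-PLVX 5 each, and in HCT15-COPS7B 1. Among all 2274 abundant mRNAs, those with none numbered 194 in HCT116, 68 in 841CON and 23 in HCT15. In HCT15-PLVX they numbered 17 and in HCT15-COPS7B 5, so the counts differ in background.

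Among these 22, which have only bounds and no order, ENSG00000198918 has the strongest bound because its RNA was the most abundant. It had 0 footprints in both SW620 RPF libraries, against 330 and 318 scaled CPM in SW620 INPUT, so the RNA replicates lay close together and far from the footprints. Footprints were at least 17.04-fold lower than RNA (edgeR adjusted p = 1.94e-07). The same mRNA had no footprint in either RPF library of HCT116, HCT15 or 841CON, and 1.58 and 1.97 scaled CPM in HCT15-PLVX RPF against 100.1 and 86.9 in HCT15-PLVX INPUT. In HCT15-COPS7B it had 3.29 and 1.77 scaled CPM in RPF against 613 and 149 in INPUT. Each population was scaled on its own. Both RPF values lay below both INPUT values in all 6 populations. With no footprint in SW620, HCT116 or HCT15, the ratio could not be compared between these lines.

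ENSG00000173674 likewise had 0 footprints in both SW620 RPF libraries, against 204 and 367 scaled CPM in SW620 INPUT. Footprints were at least 15.0-fold lower than RNA (edgeR adjusted p = 5.18e-07). HCT116 RPF also had none, against 36.2 and 30.0 scaled CPM in HCT116 INPUT. Where footprints were counted they stayed under the RNA. They stood at 2.38 and 6.10 scaled CPM in HCT15 RPF against 92.3 and 60.7 in HCT15 INPUT, and at 6.17 and 6.74 in 841CON RPF against 20.7 and 63.6 in 841CON INPUT. No RPF value met an INPUT value in these lines.

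ENSG00000167244 had the largest ratio of the higher class. It had 691 and 2091 scaled CPM in SW620 RPF, against 152 and 95.9 scaled CPM in SW620 INPUT. The groups did not overlap, but the RPF replicates lay apart by more than the counting interval of their 204 pooled counts, 1122.7 to 1484.5 scaled CPM (95%, exact Poisson). The log2 difference was 3.48 with an SE of 0.58 (edgeR adjusted p = 1.38e-06). Without RPF replicate 2 it was 2.48 and without RPF replicate 1 it was 4.08, so its place as the largest rests on RPF replicate 2. It was 2.08 in HCT116, −0.27 in HCT15, 0.15 in 841CON, 0.77 in HCT15-PLVX and 1.96 in HCT15-COPS7B. In 841CON, RPF levels were 1843 and 1877 scaled CPM, against INPUT levels of 1744 and 1617, so RNA and footprints there were both high. The SW620 difference exceeded that of HCT116 and HCT15 by 2.57 on the log2 scale, which did not pass (edgeR adjusted p = 0.09).

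ENSG00000171858 combined a high ratio with a high level. It had 13074 and 12060 scaled CPM in SW620 RPF, against 1551 and 1101 scaled CPM in SW620 INPUT, from 1992 footprint counts. The groups lay far apart, with the RPF values close together and the INPUT values less so in proportion. The log2 difference was 3.24 with an SE of 0.76 (edgeR adjusted p = 0.0017), and without INPUT replicate 2 it did not pass (edgeR adjusted p = 0.0556). It was positive in all 5 other populations, at 0.51 in HCT116, 2.06 in HCT15, 1.11 in 841CON, 1.51 in HCT15-PLVX and 1.21 in HCT15-COPS7B. The SW620 difference exceeded the mean of HCT116 and HCT15 by 2.07 (edgeR adjusted p = 0.0025) but did not pass against HCT15 alone, at 1.24 (edgeR adjusted p = 0.09).

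**Figure D4:**
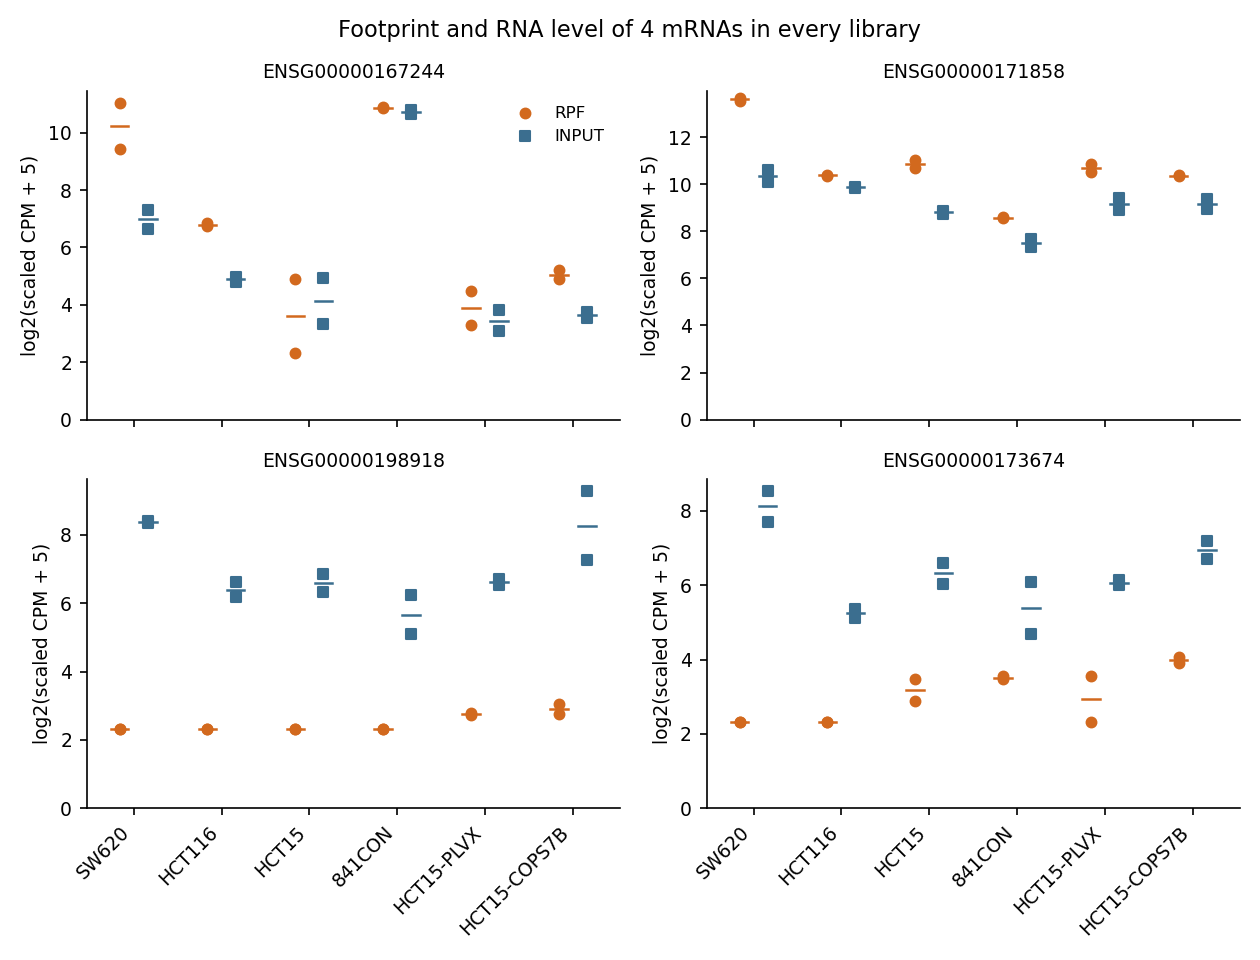
Points give the level of 4 mRNAs in each RPF (circles) and INPUT (squares) library of 6 populations as log2 of scaled CPM plus a pseudocount of 5, and short lines give the mean of 2 libraries; each population was scaled on its own. In SW620 the upper 2 mRNAs have both RPF values above both INPUT values and the lower 2 have RPF values at 0 counts, which is the lowest position drawn.

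Of the 12 mRNAs with the largest ratios in SW620, with log2 differences of 2.37 to 3.48, 3 were positive in all 5 other populations and 3 were negative in all 5. The RNA ranked 9 by abundance, described below, is among those negative in all 5. The mRNA ranked 8 by ratio was tested only in HCT116, where it was negative. The 12 with the smallest fitted values all had no footprint, so that order follows their RNA level, and 9 of them were negative in all 5 other populations and the other 3 in 4 of 5. The text names the first 2 of each.

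The 10 most abundant RNAs of SW620 INPUT held 12.3% and 12.2% of SW620 RPF counts, against 9.53% and 5.91% of SW620 INPUT counts. By the SW620 libraries 5 lay above their RNA, 4 overlapped it and 1 lay below it. The RNA ranked 1 had 6242 and 3298 scaled CPM in RPF, against 28325 and 16049 in INPUT, a log2 difference of −2.22 that did not pass (edgeR adjusted p = 0.08). It was as poor in footprints elsewhere, at −1.81 in HCT116, −2.45 in HCT15 and −2.89 in 841CON, and the difference between SW620 and the other cancer lines was 0.03. The RNAs ranked 6, 7 and 10 had differences of −0.39, 0.37 and −0.28, and their RPF and INPUT values overlapped.

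The other 5 RNAs that did not overlap, ranks 2, 3, 4, 5 and 9, had both RPF libraries above both INPUT libraries. With no names for the identifiers, it was not determined whether these RNAs are read by cytosolic ribosomes, which cycloheximide arrests, or by mitochondrial ribosomes, which it does not, and what their ratios mean depends on that. The RNA ranked 3 had 41285 and 36150 scaled CPM in RPF, against 8959 and 4601 in INPUT, and was the most footprinted of the 10. The RNA ranked 2 had 26372 and 25828 against 10025 and 7657, and the RNA ranked 5 had 21991 and 31187 against 6736 and 4237. The RNA ranked 9 had 15972 and 23899 against 4641 and 1759, and the RNA ranked 4 had 9898 and 14239 against 8174 and 4492. Within SW620 alone the rank 9 difference of 2.64 passed (edgeR adjusted p = 0.026), while those of ranks 2, 3, 4 and 5, at 1.56, 2.51, 0.93 and 2.28, did not (edgeR adjusted p = 0.27, 0.06, 0.49 and 0.08).

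In each of the other 5 populations these 5 RNAs had the opposite direction. Their log2 differences ran from −0.51 to −1.92 in HCT116, −3.56 to −5.18 in HCT15, −4.59 to −7.38 in 841CON, −1.35 to −2.84 in HCT15-PLVX and −0.69 to −2.53 in HCT15-COPS7B. In HCT15 the RNA ranked 3 had 405 and 226 scaled CPM in RPF against 5554 and 3531 in INPUT, and in 841CON 31.7 and 49.2 against 758 and 2934. For that RNA the INPUT levels of SW620 and HCT15 met, at 4601 to 8959 and 3531 to 5554, while the RPF levels lay far apart, each population being scaled on its own. The ratio in SW620 exceeded the mean of HCT116 and HCT15 by 4.33 for rank 2, 5.50 for rank 3, 3.88 for rank 4, 5.09 for rank 5 and 4.83 for rank 9 on the log2 scale, and all 5 passed (edgeR adjusted p of 8.7e-05 to 0.0018). Rank 8, with 5116 and 2871 scaled CPM in RPF against 4687 and 2193 in INPUT, was near its RNA in SW620 (0.22) and also passed at 3.00 (edgeR adjusted p = 0.0031), being at −2.13 in HCT116 and −3.22 in HCT15. These 6 passed in each of 12 fits that left out 1 library, and against HCT15 alone, and all but rank 4 (edgeR adjusted p = 0.10) against HCT116 alone.

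**Figure D5:**
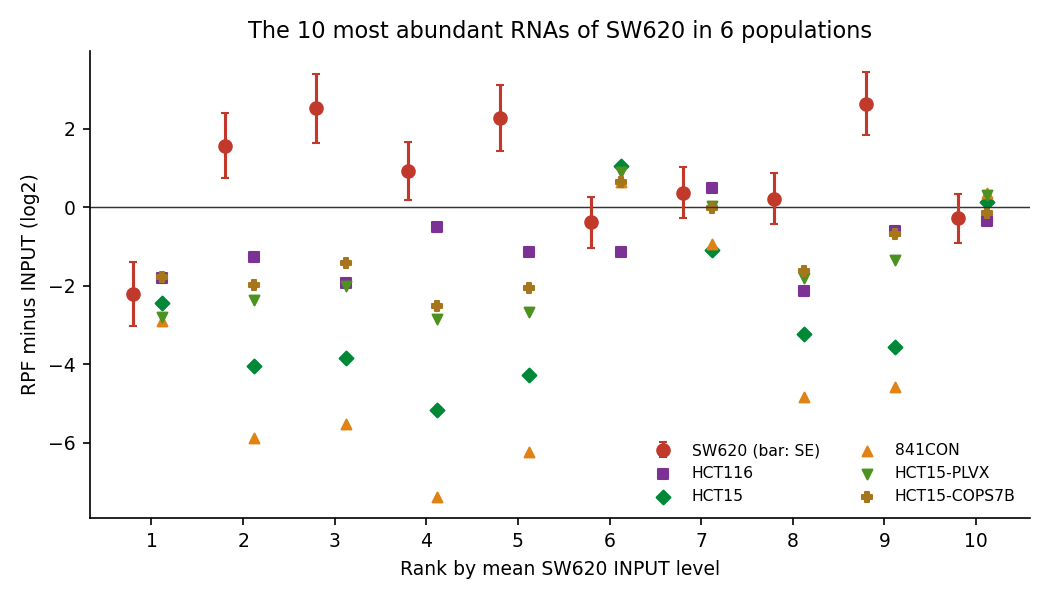
Points give the log2 difference of RPF and INPUT for the 10 RNAs most abundant in SW620 INPUT, by rank, with SW620 (circles, bar of 1 SE from edgeR) left of the 5 other populations. Ranks 2, 3, 4, 5 and 9 are above 0 in SW620, at 0.93 to 2.64, and below 0 in every other population, whereas rank 1 is below 0 in all 6.

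Across all genes, the ratio of SW620 differed from the mean of HCT116 and HCT15 for 655 of 2205 abundant mRNAs tested (29.7%), being higher in SW620 for 446 (20.2%) and lower for 209 (9.48%). Over all 8401 genes tested, 1499 were higher in SW620 (17.8%) and 371 lower (4.42%). These tests use the same SW620 libraries as the calls within SW620, so the lists are not set against each other. Higher calls made up 68.1% among abundant mRNAs, and 54.0% with no trimmed-mean scaling (348 higher and 296 lower), where the median moved from 0.18 to −0.13. With only genes counted in every compared library, a filter chosen after seeing the data, they made up 60.9% (257 higher and 165 lower). The median of these 1836 abundant mRNAs was −0.02. HCT116 left 194 abundant mRNAs without a footprint in either RPF library, HCT15 23 and SW620 22. Apart from this filter, the part of such zeros in the higher calls was not tested. Against HCT15 alone 274 abundant mRNAs passed (157 higher and 117 lower), and against HCT116 alone 820. Over all genes 529 passed against HCT15 alone and 2927 against HCT116 alone. The 8 abundant mRNAs with the largest interaction had log2 differences of −1.70 to 2.18 in SW620, against −8.39 to −11.3 in HCT116, where none of the 8 had a footprint count, so their fitted sizes are no bounds. Of the 8 with the smallest interaction, 5 had no footprint count in either SW620 library, while all 8 were counted in both RPF libraries of HCT116 and of HCT15. The 655 calls became 353 without SW620 INPUT replicate 2, 435 without SW620 RPF replicate 2 and 443 without SW620 RPF replicate 1, and 467 to 479 without any one of the HCT116 libraries, while without HCT15 RPF replicate 1 or 2 there were 798 or 752. Over all genes the 1870 calls became 861 without SW620 INPUT replicate 2, 1075 without SW620 RPF replicate 2 and 1226 without SW620 RPF replicate 1.

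A large part of SW620 RNA lay in genes that the footprint tables do not list. The 40197 genes listed for INPUT only held 41.2% and 46.2% of SW620 INPUT counts, against 11.1% to 28.0% in the INPUT libraries of the other populations. With all INPUT genes in the library size, 291 abundant mRNAs passed in place of 296, so this share hardly moved the count.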

How the data were processed

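The authors deposited raw counts per Ensembl gene for each library. Tools named in the submitters' processing notes are HTSeq 2.0.2, STAR 2.7.9 and cutadapt 3.5, with the build GRCh38. Annotation release, strand setting and feature counted remain not given in the sources used here, so overlapping, antisense and near-identical genes are uncertain. Per the labels, 1 protocol with a sucrose gradient, ribosomal RNA removal and a small-RNA library kit served all libraries, and how INPUT RNA was fragmented is not stated. Tests used the 20426 genes listed in both assays.

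The 4 SW620 libraries were fitted with edgeR 4.0.16 in R 4.3.3 (quasi-likelihood, 2 residual degrees of freedom, two-sided, Benjamini-Hochberg adjusted p under 0.05), for the 9723 genes averaging at least 10 counts in SW620 INPUT. Trimmed means over the 2274 abundant genes gave the scaled CPM. The interaction was fitted on 12 libraries, with the same minimum in each of 3 lines. Alternatives used limma 3.58.1, DESeq2 1.42.0, other filters, scalings and libraries left out. In simulated data, the SW620 test recovered 1.27% of 2-fold, 38.5% of 4-fold and 77.5% of 8-fold changes in abundant genes, and 1.22% of calls were false. The simulated counts took their spread from the fit itself. The false share therefore does not cover spread that the fit misses in the real libraries.

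Named genes are the first 2 of the 12 largest and 12 smallest log2 differences among abundant called mRNAs whose groups do not overlap, in place of the full rule, as 0 of 20426 identifiers could be paired with a symbol. The 10 most abundant RNAs and the 8 largest interactions are given by rank. Libraries, gene lists and tests were chosen with earlier results of these data known.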

Additional observations from a re-analysis of the deposited data

Results flagged for a closer look

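The test of the difference between lines passed for 446 abundant mRNAs with a higher ratio of footprints to RNA in SW620 than in HCT116 and HCT15, and for 209 with a lower ratio (edgeR interaction). With only genes counted in every compared library, it passed for 257 abundant mRNAs with a higher ratio and 165 with a lower one. Among the 10 most abundant RNAs the test passed for rank 2 (4.33 on the log2 scale), rank 3 (5.50) and rank 4 (3.88). It also passed for rank 5 (5.09), rank 8 (3.00) and rank 9 (4.83). For ENSG00000171858 the difference was 2.07.

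Counts outside the genes compared made up 41.2% of SW620 INPUT replicate 1 and 46.2% of SW620 INPUT replicate 2, in genes that the RPF tables do not list. Their part in the results was tested only through the library size.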

How the results depend on the processing

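Footprint depth limits what could be seen, with a median of 23 pooled counts per abundant mRNA, and so does the spread between the INPUT replicates. Counts of calls depended on the method. For RPF against INPUT, the 596 genes became 286 with DESeq2, 214 with limma, 145 when at least a 2-fold difference was tested, and 68 to 512 with 1 SW620 library left out. The 296 abundant mRNAs became 98 with limma, 87 when at least a 2-fold difference was tested, 176 of 897 with a bound of 200 CPM, and 49 to 215 with 1 library left out. In these fits lower calls outnumbered higher ones among abundant mRNAs. For SW620 against HCT116 and HCT15, the 1870 genes became 529 with HCT15 alone, 2927 with HCT116 alone, 1119 of 4132 at a mean INPUT count of at least 50, 832 of 5093 with only genes counted in every compared library (chosen after seeing the data), and 861 to 1456 with 1 SW620 library left out. The 655 abundant mRNAs became 274 with HCT15 alone, 422 counted in every compared library, and 353 to 603 with 1 SW620 library left out. ENSG00000171858 failed only without SW620 INPUT replicate 2 among its 18 alternatives, and the other 3 named genes passed in all of theirs. The cause of these changes was not tested.

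The replicate numbers were not used to pair the SW620 libraries, as no label says that they do. Deviations of same-numbered libraries correlated at −0.24. That value cannot settle the pairing, as footprint counts were low, with a median of 23 pooled per abundant mRNA. With the replicate block 206 genes and 139 abundant mRNAs passed, and 821 and 381 in the comparison with the other lines. With crossed numbers, chosen after seeing the data, 663 genes and 366 abundant mRNAs passed. With no trimmed-mean scaling, the lower class kept its direction in 81.3% to 94.2% of members in the other populations (background 57.9% to 69.1%) and the higher class in 38.5% to 56.4% (background 30.9% to 42.1%).

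Counts and shares for gene lists and the trend with protein length were not run, because no table used here pairs the identifiers with names.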
